A study of Mus musculus with 6 samples.

Results

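The glutathione and antioxidant enzymes are the genes that make and use glutathione, that reduce peroxides, and that remove superoxide, together with the transcription factor Nrf2 (gene Nfe2l2) and its inhibitor Keap1. Members were chosen by gene symbol in the platform annotation of the array, with earlier results of these data known. The rule took the alpha, mu, omega, pi, kappa and theta glutathione transferases, the microsomal transferases, the glutathione peroxidases, the peroxiredoxins, the thioredoxins and their reductases, the superoxide dismutases, and Cat, Gclc, Gclm, Gss, Gsr, Nqo1, Hmox1, Hmox2, Srxn1, Nfe2l2 and Keap1. This gave 99 of the 45281 probes on the array and 54 of its 19057 named genes. Gsr, Prdx5 and Prdx6 are not analysed here. Of the members, 73 probes of 47 genes were among the 18420 brightest probes, which were the ones tested. The 7 genes below that limit were Gclc, Gpx2, Gpx5, Gpx6, Gstm3, Gstp3 and Gstt4.

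The samples were sciatic nerves of mice at postnatal day 14, with both sexes named for every sample. There were 3 mutant arrays, whose genotype label is P0 Cre Dicer F or N, and 3 arrays of control littermates. The P0 promoter of the label drives the recombinase Cre in Schwann cells, the glia that wrap peripheral axons. Dicer cuts microRNA precursors to their mature form. The sources do not say what F or N stands for, nor whether nerves of several animals were pooled for an array, so p-values cover the spread among these 6 arrays only, part of which may be technical. A nerve also holds fibroblasts, endothelial cells, macrophages and fat that need not carry the recombined allele, and in whole nerve fewer cells of a type and less RNA per cell cannot be told apart.

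Glutathione is a small thiol that cells make from glutamate, cysteine and glycine. Glutathione peroxidases use it to reduce hydrogen peroxide and lipid peroxides, and glutathione transferases attach it to reactive molecules. Peroxiredoxins do the same work on peroxides with electrons from thioredoxin. Many of these genes carry antioxidant response elements, to which Nrf2 binds with small Maf proteins once oxidants or electrophiles release it from Keap1. Myelin is rich in lipids, which are substrates for peroxidation.

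Values are normalised signals on a log2-like scale that runs from 7.96 to 15.91 with a median of 8.24 on every array, and every difference is mutant minus control on that scale. Whether it is plain log2 or a variance-stabilised scale is not settled, and on the second a difference between dim probes understates the log2 fold change. Over the tested probes, arrays correlated at 0.973 to 0.993 among mutants, 0.912 to 0.942 between mutants and controls, and 0.992 to 0.995 among controls. Mutant replicate 1 was the lowest of the mutant arrays in 35 of the 47 antioxidant genes (74.5%), against 37.9% of all 10273 genes tested. Dicer1 was read by a brighter probe at 9.28, 9.10 and 9.13 in mutants and 9.29, 9.17 and 9.13 in controls (limma adjusted p = 0.832), and by a dimmer one that was lower in mutants by 0.20 (SE 0.0630, limma adjusted p = 0.0458). The position of these probes in relation to the deletion is unknown here, so neither checks the genotype. Of 5 measured Schwann cell markers, Mag, Mbp, Pmp22 and S100b fell, and the lineage factor Sox10 was at 14.09, 14.00 and 13.85 in mutants and 13.97, 13.92 and 13.94 in controls.

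In the mutant nerves a few antioxidant genes moved strongly, in opposite directions, while most were not called. Gsto1 rose by 2.12 and Gpx1 by 1.13, while Mgst3 fell by 2.03, and these were the 3 called genes that differed by at least 1. Of the 47 genes, 6 rose, 14 fell and 27 were not called (limma adjusted p under 0.05, with the brightest probe standing for a gene). That is 42.6% called, where 39.6% of all genes tested were called, so the share of changed genes was close to that of the transcriptome. By direction, 12.8% of the antioxidant genes rose, against 22.0% of all genes, and 29.8% fell, against 17.6%. No test was made of the list as a whole. The share that differed by at least 1 was 6.38%, against 5.57% of all genes. The median difference was -0.20, against 0.01 over all genes, and the difference was below 0 in 37 of 47 members (78.7%), against 48.0% of all genes. Every mutant array lay above every control array in 7 genes and below in 23 genes, where 29.7% and 25.5% of all genes did so. By probe, 8 of 73 rose and 18 fell, where 35.8% of all probes were called, 19.9% higher and 15.9% lower.

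How many genes fell depended on single arrays and on the filter. The count of 14 lower genes was 6, 8 and 9 without control replicates 1, 2 and 3, and 16 without mutant replicate 1. The share of all genes called in those fits is not given here, and a fit with fewer arrays has less power for every gene. These counts therefore do not set the antioxidant genes apart. With all probes tested the count of lower genes was 8 of 54, with 4 higher, where 19.9% of all genes were called, 8.63% lower and 11.2% higher. By probe that fit called 11 of 99 lower and 6 higher, where 14.1% of all probes were called, 6.15% lower and 7.95% higher. Gsto1, Gpx1, Prdx4 and Srxn1 were called higher and Mgst3 lower in all 12 alternative fits. Gsto2, Gstm7, Gss, Txnrd3 and Nqo1 were called lower in the 11 that tested them, since a stricter filter of 12000 probes left them out. Gsta1 and Gsta2 passed the brightness filter only through the mutant arrays and Gsto2 only through the control arrays, so each of them had to differ to be tested.

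**Figure D1:**
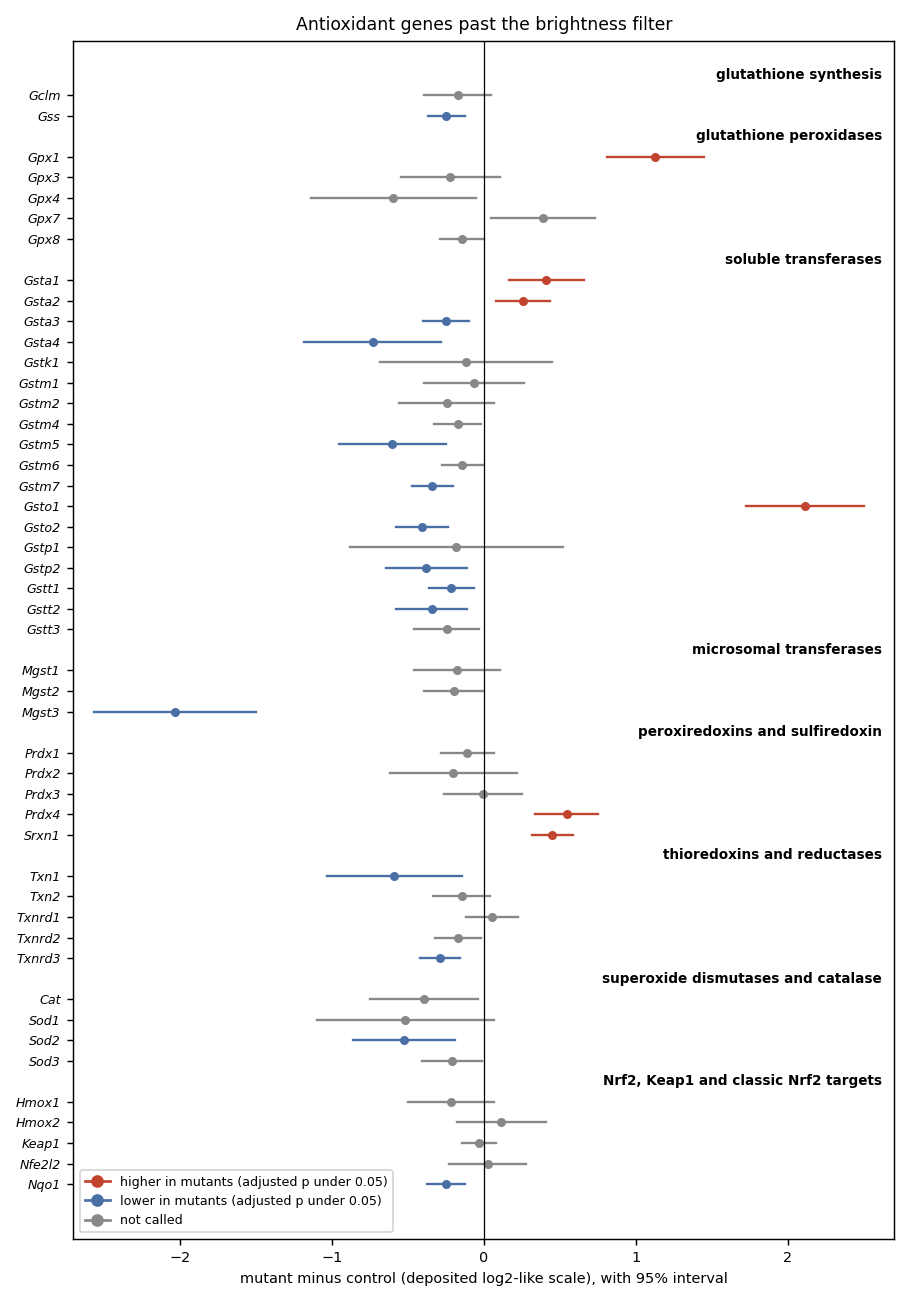
Difference between mutant and control arrays (x axis, mutant minus control on the deposited log2-like scale) for the 47 antioxidant genes that were tested, grouped by enzyme family down the page. Points are limma estimates from 3 mutant and 3 control arrays, bars are 95% confidence intervals, and colours mark the call. Gsto1 at 2.12, Gpx1 at 1.13 and Mgst3 at -2.03 lie far from the other genes, most of which sit slightly below 0.

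The start sites of the 3 genes with the largest change, of Gsto2, the neighbour of Gsto1, and of Srxn1 are shown because antioxidant genes are known as targets of factors that bind near the start. The sequences are from RefSeq (build GRCm38.p6), 250 bases before to 50 bases after the annotated start, on the gene's strand from 5′ to 3′. Capitals mark matches, on either strand, to TGACNNNGC (the core of the antioxidant response element), TGANTCA (an AP-1 site) or GCGNGGGCG (a site of the Egr factors).
Gsto1, chr19:47854723-47855022, plus strand: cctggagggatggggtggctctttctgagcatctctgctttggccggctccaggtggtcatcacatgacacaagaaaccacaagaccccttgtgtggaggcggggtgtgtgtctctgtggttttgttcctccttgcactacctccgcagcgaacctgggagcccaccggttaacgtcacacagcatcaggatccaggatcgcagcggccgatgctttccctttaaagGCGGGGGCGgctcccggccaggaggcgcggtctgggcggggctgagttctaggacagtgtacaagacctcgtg
Gsto2, chr19:47865295-47865594, plus strand: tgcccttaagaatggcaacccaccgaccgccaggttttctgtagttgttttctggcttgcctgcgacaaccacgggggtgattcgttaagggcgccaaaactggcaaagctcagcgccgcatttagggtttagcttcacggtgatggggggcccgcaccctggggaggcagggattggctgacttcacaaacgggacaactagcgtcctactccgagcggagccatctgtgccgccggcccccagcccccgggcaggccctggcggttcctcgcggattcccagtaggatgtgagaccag
Gpx1, chr9:108338830-108339129, plus strand: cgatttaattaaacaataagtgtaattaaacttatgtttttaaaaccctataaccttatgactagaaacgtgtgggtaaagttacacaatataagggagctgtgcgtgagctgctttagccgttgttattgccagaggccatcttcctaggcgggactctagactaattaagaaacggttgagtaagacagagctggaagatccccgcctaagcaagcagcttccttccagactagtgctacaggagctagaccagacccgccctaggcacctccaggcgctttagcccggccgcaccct
Mgst3, chr1:167393792-167394091, minus strand: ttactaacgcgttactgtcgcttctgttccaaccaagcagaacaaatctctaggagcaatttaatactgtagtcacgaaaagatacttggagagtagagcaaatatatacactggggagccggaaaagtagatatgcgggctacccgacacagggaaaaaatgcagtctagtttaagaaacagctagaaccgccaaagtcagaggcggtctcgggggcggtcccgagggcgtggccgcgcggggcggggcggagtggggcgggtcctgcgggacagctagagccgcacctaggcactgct
Srxn1, chr2:152105274-152105573, plus strand: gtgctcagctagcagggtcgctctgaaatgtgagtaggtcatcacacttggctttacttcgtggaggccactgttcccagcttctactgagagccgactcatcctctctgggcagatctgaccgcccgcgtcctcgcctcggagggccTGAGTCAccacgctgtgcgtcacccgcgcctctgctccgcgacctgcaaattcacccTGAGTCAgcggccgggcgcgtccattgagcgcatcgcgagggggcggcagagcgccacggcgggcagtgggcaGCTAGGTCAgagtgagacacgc

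Srxn1, which encodes sulfiredoxin, held a TGACNNNGC match that begins 28 bases after the start and AP-1 matches 102 and 45 bases before it. Gsto1 held an Egr match 23 bases before its start. The windows of Gsto2, Gpx1 and Mgst3 had no match to these letters. RefSeq windows were found for 49 of the 54 genes, and 10 of these genes held a TGACNNNGC match, where 14.0% of all 27025 genes with windows did (12.4% of the 32851 windows). They were 1 of the 6 genes that rose (Srxn1), 3 of 12 that fell (Gsta3, Gstm5 and Gstm7) and 6 of 31 not called (Gclm, Mgst1, Nfe2l2, Prdx1, Sod1 and Txnrd1). AP-1 matches, which can overlap TGACNNNGC, were in 6 of the 49 genes, where 8.97% of all genes held one, and Egr matches in 4 genes, where 6.27% did. A match is a description of the letters and not a site that was measured.

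Glutathione is made in a pair of steps. Glutamate-cysteine ligase, with the catalytic subunit Gclc and the modifier subunit Gclm, joins the first amino acids, and the synthetase Gss adds glycine. Gss, at 8.53, 8.55 and 8.50 in mutants and 8.82, 8.72 and 8.78 in controls, fell by 0.25 (SE 0.0509, limma adjusted p = 0.0101). All mutant arrays were below all control arrays, on a probe not far above the filter limit of 8.34. Of the 3 tested Gss probes 2 were called lower and 1 was not. Gclm was at 9.28, 9.51 and 9.46 in mutants and 9.50, 9.52 and 9.74 in controls, groups that overlap (-0.17, 95% interval -0.39 to 0.05). Gclc lay below the filter limit on all 6 arrays, between 8.27 and 8.33.

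Among the glutathione peroxidases, Gpx1, the cytosolic selenoenzyme that reduces hydrogen peroxide, was the member that rose. It had 14.01, 14.55 and 14.33 in mutants and 13.15, 13.23 and 13.13 in controls. The groups were far apart beside the spread within each, with a difference of 1.13 (SE 0.133, limma adjusted p = 9.88e-04). On a plain log2 scale that is 2.19-fold. Gpx4, which reduces lipid peroxides inside membranes, stood the other way, at 12.14, 12.84 and 13.08 in mutants and 13.20, 13.32 and 13.33 in controls. All its mutant arrays were below the controls, but mutant replicate 1 was far below the other two and the difference of -0.59 (95% interval -1.14 to -0.05) was not called (limma adjusted p = 0.0846). It was called without mutant replicate 1 (-0.32, limma adjusted p = 0.0207), without mutant replicate 3 (-0.79, 0.0295) and with the replicate number as a block (0.0454).

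Gpx7, a peroxidase of the endoplasmic reticulum, had 11.31, 11.90 and 11.71 in mutants and 11.25, 11.28 and 11.21 in controls. Its mutant replicate 1 lay close to the controls, and the difference of 0.39 was not called (limma adjusted p = 0.0760), but without that array it was 0.55 (9.09e-04). Gpx8, of the same compartment, differed by -0.15 on its brightest probe (limma adjusted p = 0.108), with 1 of 3 probes called lower, and their mean was called (-0.18, 0.0445). Gpx3, the secreted plasma peroxidase, overlapped between the groups (-0.22, limma adjusted p = 0.256). Gpx2, Gpx5 and Gpx6, which are known from gut, epididymis and olfactory epithelium, were below the filter limit.

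Of the 18 soluble transferases tested, out of 21 on the array, 3 rose (16.7%, against 22.0% of all genes), 8 fell (44.4%, against 17.6%) and 7 were not called. Of those that rose, Gsta1 and Gsta2 were tested only because of their level in mutants, and of those that fell, Gsto2 only because of its level in controls. Gsto1, of the omega class, whose members reduce dehydroascorbate and thiol adducts more than they conjugate, had the largest difference of all the antioxidant genes. It was at 11.59, 12.20 and 12.12 in mutants and 9.78, 9.99 and 9.79 in controls. No mutant array came within 1 unit of a control array, and the difference of 2.12 (SE 0.162, limma adjusted p = 1.57e-04) would be 4.33-fold on a plain log2 scale. Gsto2, its paralogue and its direct neighbour on chromosome 19 with no coding gene between them, was at 8.30, 8.36 and 8.32 in mutants and 8.66, 8.67 and 8.87 in controls. Its difference was -0.41 (SE 0.0714, limma adjusted p = 0.00542), and both Gsto2 probes were called lower. The omega pair therefore differed in opposite directions, the second member on dim probes that passed the filter only through the control arrays.

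The alpha class, known for binding hydrophobic substrates and reducing lipid peroxides, also held calls in both directions. Those called higher, Gsta1 and Gsta2, passed the filter only through the mutant arrays, so their direction was fixed by the filter. Gsta4, whose product conjugates hydroxynonenal from lipid peroxidation, had 9.13, 9.74 and 9.25 in mutants and 10.20, 10.29 and 9.82 in controls. The groups did not overlap but came close between mutant replicate 2 and control replicate 3, and the difference was -0.73 (SE 0.189, limma adjusted p = 0.0239). That call was lost without control replicate 1 (0.0853), control replicate 2 (0.0849) or mutant replicate 3 (0.0628), and without the filter (0.0709). Gsta3 was at 8.41, 8.53 and 8.49 in mutants and 8.76, 8.78 and 8.63 in controls (-0.25, limma adjusted p = 0.0236), a call lost without control replicate 1 (0.0878) or 2 (0.0844).

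Gsta1, whose gene lies next to Gsta4 on chromosome 9, was at 8.49, 8.82 and 8.87 in mutants and 8.32, 8.34 and 8.29 in controls. Gsta2 was at 8.42, 8.62 and 8.63 in mutants and 8.36, 8.29 and 8.25 in controls. Both were near the dim end of the scale, with mutant replicate 1 close to the controls. Their differences were 0.41 (SE 0.103, limma adjusted p = 0.0218) and 0.26 (SE 0.0738, limma adjusted p = 0.0347). Each call was lost without any single array except mutant replicate 1, with adjusted p from 0.0531 to 0.0736 for Gsta1 and from 0.0669 to 0.109 for Gsta2, and the Gsta2 call also with the replicate block (0.0709). Both were lost when all probes were tested without the filter (0.0534 for Gsta1 and 0.0582 for Gsta2). The coding sequences of the alpha genes are close copies of each other, as are those of the mu, pi and theta classes, so how far each probe reads its paralogues is uncertain.

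In the mu class, which stands in a row on chromosome 3, 2 of 6 tested genes fell, where 17.6% of all genes did, a count too small to set the class apart. Gstm5 had 10.57, 11.08 and 10.79 in mutants and 11.45, 11.22 and 11.58 in controls. Mutant replicate 2 and control replicate 2 came nearest to each other, and the difference was -0.60 (SE 0.147, limma adjusted p = 0.0198), not called without control replicate 1 (0.0706) or 3 (0.0726) or without the filter (0.0573). Gstm7, next to it, was at 8.42, 8.57 and 8.49 in mutants and 8.86, 8.80 and 8.84 in controls (-0.34, SE 0.0570, limma adjusted p = 0.00451). Gstm1, Gstm2, Gstm4 and Gstm6 were not called, with differences from -0.24 for Gstm2 to -0.06 for Gstm1, though Gstm6 was called lower under eBayes with trend and robust (-0.14, limma adjusted p = 0.0370). Gstm2, at 12.38, 12.77 and 12.76 in mutants and 12.94, 13.00 and 12.70 in controls, overlapped between the groups.

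In the pi class Gstp1, at 11.35, 12.32 and 12.43 in mutants and 12.23, 11.94 and 12.46 in controls, was not called (-0.18, 95% interval -0.88 to 0.52). Only mutant replicate 1 stood below the controls, so the interval is wide. Gstp2, its neighbour, was at 8.59, 8.97 and 8.94 in mutants and 9.29, 9.13 and 9.23 in controls (-0.38, SE 0.111, limma adjusted p = 0.0376). Its call was lost without control replicate 1 (0.122), 2 (0.0687) or 3 (0.106), without the filter (0.0896) and with the replicate block (0.0630).

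In the theta class 2 of the 3 tested genes were called lower, where 17.6% of all genes were, a count too small to set the class apart. Neither call was stable. Gstt1 was at 8.67, 8.75 and 8.71 in mutants and 9.02, 8.88 and 8.87 in controls (-0.21, limma adjusted p = 0.0350), a call lost in each fit without 1 of the 6 arrays (0.0534 to 0.107), with the replicate block (0.0726) and with the stricter filter (0.0529). Gstt2 was at 8.82, 9.10 and 9.14 in mutants and 9.30, 9.46 and 9.32 in controls (-0.34, limma adjusted p = 0.0339), a call lost without mutant replicate 2 (0.0573) or control replicate 1 (0.0734), 2 (0.113) or 3 (0.0803), without the filter (0.0759) and with the mean of its probes (0.0631), and its second probe was not called. Gstt3, at 10.29, 10.27 and 10.35 in mutants and 10.60, 10.69 and 10.36 in controls, was not called (limma adjusted p = 0.0774), but was without control replicate 3 (-0.34, 0.0149). Gstk1, the kappa transferase of mitochondria and peroxisomes, overlapped (-0.12, 95% interval -0.69 to 0.45).

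Of the 3 microsomal transferases, Mgst3 fell. Its product sits in membranes and has transferase and peroxidase activity, the second towards lipid hydroperoxides. It was at 9.56, 10.35 and 10.43 in mutants and 12.12, 12.11 and 12.20 in controls. The control arrays lay close together, mutant replicate 1 was below the other mutants, and all mutants were far below all controls, with a difference of -2.03 (SE 0.222, limma adjusted p = 7.28e-04). On a plain log2 scale mutants would be at 0.245 of the control level. A second probe fell by 1.92 (SE 0.158). Mgst1 (-0.18, limma adjusted p = 0.297) and Mgst2 (-0.20, limma adjusted p = 0.106) were not called.

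Among the peroxiredoxins, Prdx4 rose, and so did Srxn1, which restores peroxiredoxins after overoxidation. Prdx4, the peroxiredoxin of the endoplasmic reticulum, was at 12.90, 13.18 and 13.20 in mutants and 12.57, 12.57 and 12.51 in controls (0.54, SE 0.0869, limma adjusted p = 0.00359). Srxn1 was at 10.14, 10.10 and 10.03 in mutants and 9.71, 9.60 and 9.62 in controls (0.45, SE 0.0568, limma adjusted p = 0.00131). In both genes all mutant arrays lay above all controls, and for Srxn1 mutant replicate 1 was the highest. Of the other Srxn1 probes, 1 was called at 0.28 and 1 was not, at 0.17.

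The other peroxiredoxins tested were not called. Prdx1, at 14.37, 14.61 and 14.56 in mutants and 14.61, 14.61 and 14.65 in controls, differed by -0.11, with a 95% interval of -0.28 to 0.06. Prdx2 differed by -0.20 (limma adjusted p = 0.417), and the mitochondrial Prdx3 by less than 0.01 (95% interval -0.26 to 0.25). A gene that was not called is not shown to be equal in the groups.

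Of the 5 thioredoxin genes, 2 fell (40%), where 17.6% of all genes did, a count too small to set the family apart. Txn1, the cytosolic thioredoxin that supplies electrons to peroxiredoxins, was at 9.53, 10.07 and 10.31 in mutants and 10.50, 10.58 and 10.60 in controls. The mutant arrays were spread over a wider range than the controls, and the difference was -0.59 (SE 0.185, limma adjusted p = 0.0474). It was not called without mutant replicate 2 (0.0874) or control replicate 1 (0.106), 2 (0.127) or 3 (0.128), or without the filter (0.126). Txnrd3, a reductase best known from testis, was at 8.59, 8.53 and 8.53 in mutants and 8.87, 8.77 and 8.87 in controls (-0.29, SE 0.0542, limma adjusted p = 0.00693). Txnrd1, the cytosolic reductase, was at 8.51, 8.50 and 8.69 in mutants and 8.58, 8.43 and 8.53 in controls (limma adjusted p = 0.620). The mitochondrial pair Txn2 and Txnrd2 differed by -0.14 and -0.17 and was not called, though Txnrd2 was called lower with cyclic loess (adjusted p = 0.0476) and with the mean of its probes (0.0361).

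Superoxide dismutases turn superoxide into hydrogen peroxide, which catalase splits. Sod2, the manganese enzyme of mitochondria, was at 11.78, 12.34 and 12.22 in mutants and 12.67, 12.64 and 12.60 in controls. The groups did not overlap, and the difference was -0.52 (SE 0.141, limma adjusted p = 0.0277), not called without control replicate 1 (0.0895), 2 (0.0819) or 3 (0.0756), or without the filter (0.0753). Sod1, the copper and zinc enzyme of the cytosol, was at 10.99, 11.90 and 11.93 in mutants and 12.14, 12.15 and 12.08 in controls. Its difference of -0.52 rested largely on mutant replicate 1 and was not called (limma adjusted p = 0.149), and without that array it was -0.21 (0.0201). Cat was at 10.83, 10.58 and 10.28 in mutants and 11.01, 10.79 and 11.09 in controls. These groups overlapped (-0.40, limma adjusted p = 0.0813), but without mutant replicate 1 the difference was -0.53 (0.0100), and the mean of the Cat probes was called lower (-0.28, 0.0419). Sod3, the secreted enzyme, differed by -0.21 (limma adjusted p = 0.0924).

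The regulators themselves were not called. Nfe2l2 was at 9.92, 9.51 and 9.62 in mutants and 9.64, 9.68 and 9.66 in controls (0.02, 95% interval -0.23 to 0.28). Keap1 was at 10.64, 10.67 and 10.66 in mutants and 10.67, 10.69 and 10.72 in controls (-0.03, 95% interval -0.14 to 0.08), and limma called none of its 4 tested probes (unadjusted p from 0.490 to 0.980), with differences from -0.03 to 0.01. Transcript levels do not measure Nrf2 activity, which is set mostly by the stability of the protein.

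Nqo1, the quinone reductase often used as a readout of Nrf2, was at 8.37, 8.36 and 8.35 in mutants and 8.59, 8.55 and 8.67 in controls. All mutant arrays were below all controls, by 0.25 (SE 0.0521, limma adjusted p = 0.0112), near the dim end of the scale. Hmox1, the inducible heme oxygenase, overlapped at 8.85, 8.71 and 8.74 in mutants and 9.20, 8.74 and 9.01 in controls (-0.22, limma adjusted p = 0.203), and was called lower without control replicate 2 (-0.34, 0.0419). Hmox2, the constitutive form, differed by 0.11 (limma adjusted p = 0.511) and by 0.25 without mutant replicate 1 (0.0155).

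**Figure D2:**
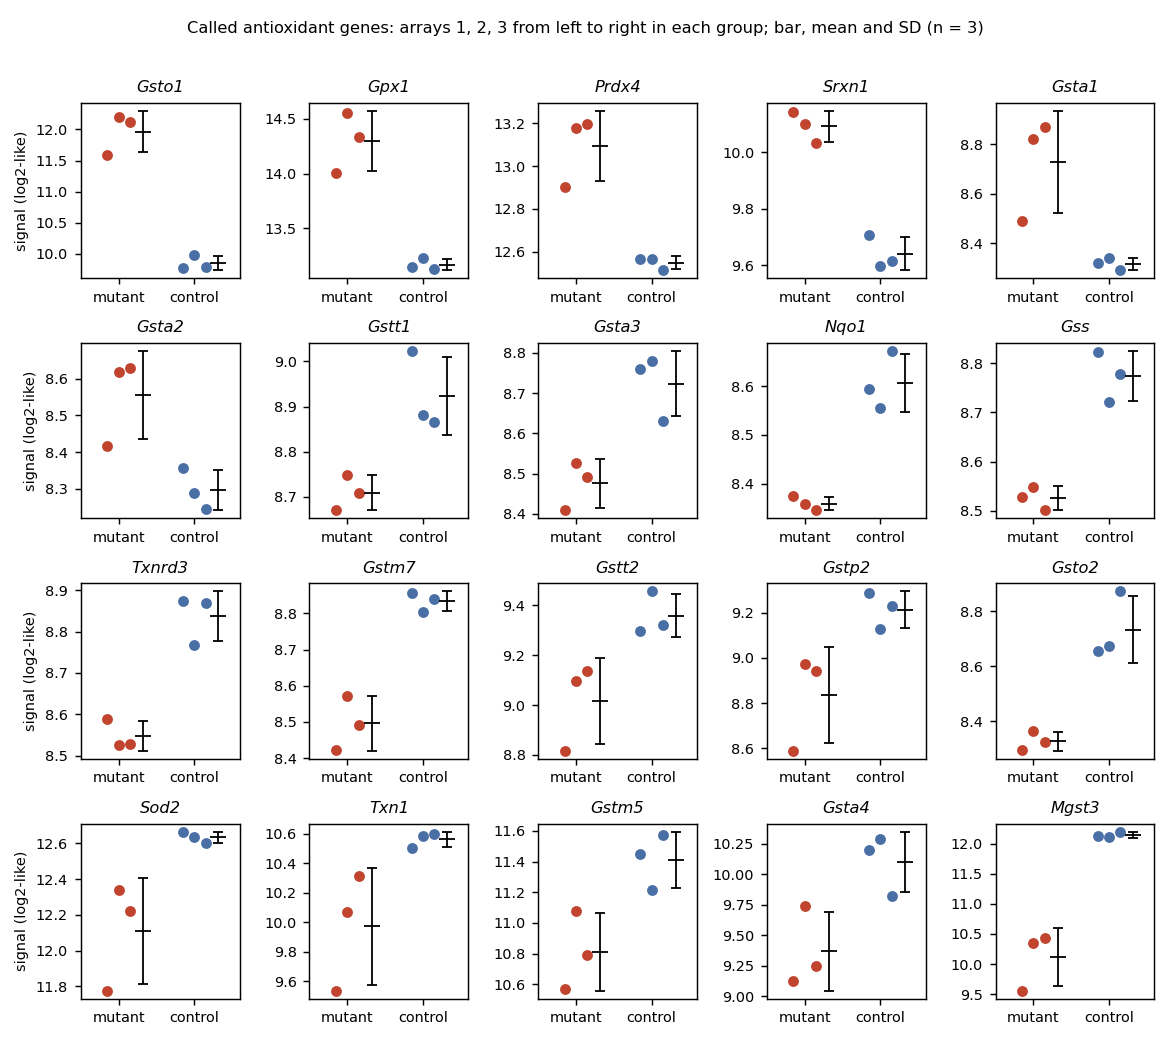
Level on each array (y axis, deposited log2-like scale) of the 20 called antioxidant genes, with the 3 mutant arrays to the left of the 3 control arrays in each panel. Bars show the mean and SD. In all 20 genes the mutant and control points do not overlap, with the widest gaps in Gsto1, Gpx1 and Mgst3.

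The arrays did not contribute equally. The median over the 47 genes of the deviation from the control mean was -0.26, -0.11 and -0.19 on mutant replicates 1, 2 and 3, where over all genes it was 0.01 on each. Mutant replicate 2 was the highest of the mutants in 25 of the 47 genes (53.2%, against 25.1% of all genes). Mutant replicate 1 was the highest in 8 (17.0%, against 43.7% of all genes). Without replicate 1, Gpx4, Gpx7, Sod1, Cat and Hmox2 gained a call and Gstt1 lost it.

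**Figure D3:**
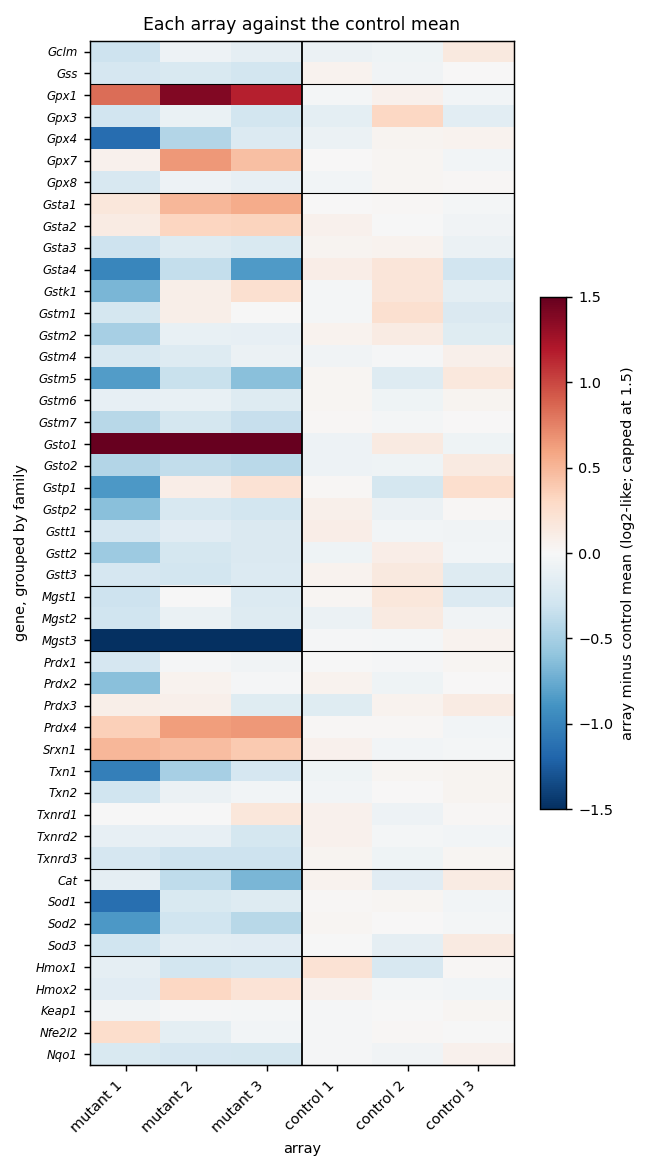
Deviation from the control mean (colour, deposited log2-like scale, limited to 1.5 in either direction) of the 47 antioxidant genes (rows, by family) on the 3 mutant arrays (left) and the 3 control arrays (right). Mutant replicate 1 is the lowest of the mutant arrays in 35 of 47 genes, while the control columns stay near 0.

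Gene lists of the same pathways were set beside the antioxidant genes. Where a list's called members are named, they are those with the largest differences in each direction, at most 3. Of 20 other Nrf2 targets, 13 were tested, and 3 rose and 3 fell (46.2% called, against 39.6% of all genes; median -0.02). The biliverdin reductase gene Blvra rose by 0.43, Akr1b8, an aldo-keto reductase, by 0.36 and the transporter gene Abcc3 by 0.22 (limma adjusted p = 0.00791, 0.00505 and 0.0110), the last on a probe that passed the filter only through the mutants. Blvrb, the second biliverdin reductase gene, fell by 0.67, the heme transporter gene Slc48a1 by 0.46 and the carbonyl reductase gene Cbr1 by 0.39 (limma adjusted p = 0.0315, 0.00672 and 0.0494). The Blvrb call was lost without control replicate 1 (0.0915), 2 (0.101) or 3 (0.0764). For Cbr1 it was lost without mutant replicate 3 (0.0761), without control replicate 1 (0.129), 2 (0.0970) or 3 (0.141), and with the replicate block (0.0584). The count of lower genes was 1 without any 1 control array. Of the 7 tested partners and adaptors of Nrf2, Mafg, a small Maf that pairs with it, rose by 0.45 (limma adjusted p = 0.00204), as did the related factor gene Nfe2l1, by 0.25 (0.0121), so that 28.6% were called, against 39.6% of all genes. Bach1, which competes with Nrf2 for its sites, was at 11.13, 10.53 and 10.41 in mutants and 10.12, 10.27 and 9.78 in controls. Its difference of 0.63 was not called (limma adjusted p = 0.0579), but was without mutant replicate 1 (0.0472) or 3 (0.0407) and with the replicate block (0.0292).

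Among the genes that supply and cleave glutathione and the other thiol enzymes, 24 of 34 were tested, and 3 rose and 10 fell (median -0.19). That is 54.2% called, where 39.6% of all genes were called, 22.0% higher and 17.6% lower. Slc3a2, the heavy chain of the cystine exchanger and other transporters, was at 8.95, 8.88 and 9.04 in mutants and 9.62, 9.52 and 9.69 in controls (-0.65, SE 0.0683, limma adjusted p = 6.01e-04). Ggct, which cleaves gamma-glutamyl dipeptides, fell by 0.74 and Hagh, the second enzyme of the glyoxalase path, by 0.64 (limma adjusted p = 0.0306 and 0.0167). The Ggct call was lost without mutant replicate 2 (0.0639) or control replicate 1 (0.0977), 2 (0.0635) or 3 (0.0989), and the Hagh call without control replicate 2 (0.0504) or 3 (0.0649). Without control replicate 3 the list had 6 lower genes. Txnip, which binds and inhibits thioredoxin, rose by 0.71 (SE 0.114, limma adjusted p = 0.00365), the glutaredoxin gene Glrx by 0.41 (0.00542) and Sesn2 by 0.39 (0.00178), the last on a probe that passed the filter only through the mutants.

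NADPH is the electron source of both the glutathione and the thioredoxin system. Of 12 tested genes that supply it, 1 rose and 5 fell (median -0.19). That is 50% called, where 39.6% of all genes were called, 22.0% higher and 17.6% lower. Nadk, the kinase that makes NADP from NAD, was at 11.59, 11.50 and 11.52 in mutants and 12.55, 12.48 and 12.67 in controls (-1.03, SE 0.0656, limma adjusted p = 7.48e-05). Tkt, a transketolase of the pentose phosphate path, and the folate enzyme gene Mthfd1 fell by 0.82 (SE 0.102) and 0.59 (SE 0.0510), at limma adjusted p of 0.00122 and 2.46e-04. Me2, a mitochondrial malic enzyme, rose by 0.25 (limma adjusted p = 0.0261), a call lost without mutant replicate 2 (0.0850) or 3 (0.0583), without control replicate 2 (0.0743) or 3 (0.0602), and with the replicate block (0.0610). Without control replicate 1 or 3, 3 genes of the list were called lower.

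Of 16 genes of superoxide and peroxide sources on the array 7 were tested, and 3 rose (median 0.27). That is 42.9% called, all of them higher, where 39.6% of all genes were called and 22.0% were higher. Nox4, an oxidase that releases mainly hydrogen peroxide, was at 9.30, 9.16 and 8.95 in mutants and 8.41, 8.43 and 8.29 in controls (0.76, SE 0.0965, limma adjusted p = 0.00135). Noxa1 rose by 0.47 (limma adjusted p = 0.00312), on a probe that passed only through the mutants, and Ncf4, a subunit of the phagocyte oxidase, by 0.33 (0.0121), a call just lost without control replicate 1 (0.0500). Of 18 selenoproteins and genes of selenocysteine insertion other than the peroxidases and reductases above, 2 rose and 1 fell (median 0.00). That is 16.7% called, against 39.6% of all genes. Selenoi, which makes ethanolamine phospholipids, fell by 0.57 (limma adjusted p = 0.00170). Selenon and Selenof rose by 0.29 and 0.19 (0.0250 and 0.0494). Selenon lost its call without mutant replicate 3 (0.0552), control replicate 1 (0.0904) or 3 (0.0856) and with the replicate block (0.0559). Selenof lost it without any single array but control replicate 3 (0.0571 to 0.152) and with the block (0.0961), under which 2 selenoproteins were called lower, Selenop gaining a call (-0.48, 0.0432).

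**Figure D4:**
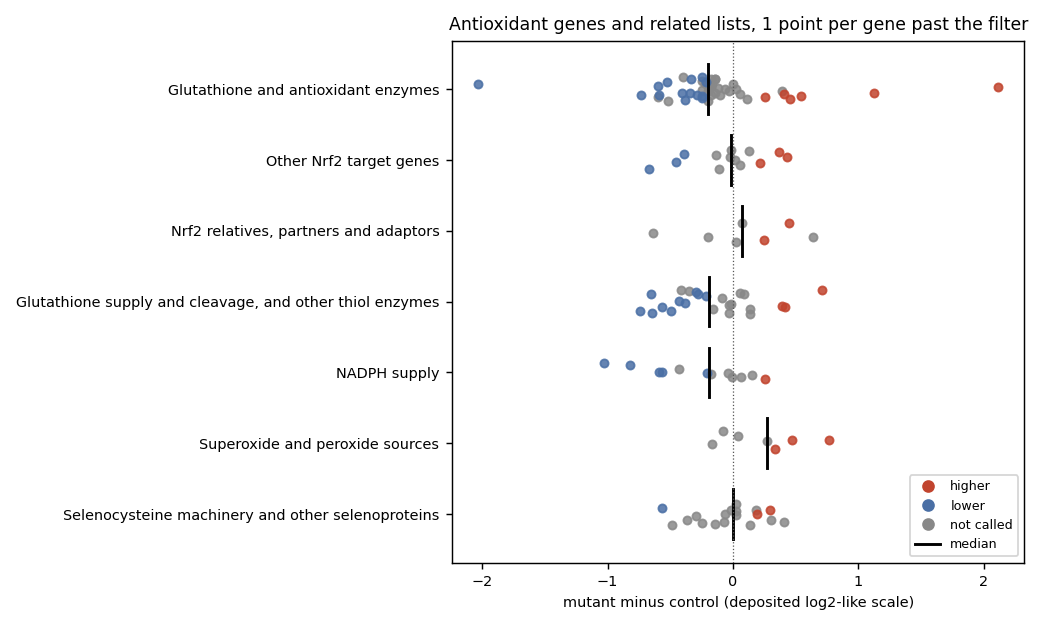
Differences (x axis, mutant minus control, deposited log2-like scale) of the tested genes of the antioxidant set and of 6 related lists, one row a list, each point a gene, with the median as a line. The medians are -0.20 for the antioxidant genes and lie between -0.19 and 0.27 for the related lists.

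Levels of some markers of other cells also differed between the groups, and their part in the results above was not tested. The sums below add the log2-like signals of a list's markers on the array, tested or not, so a gap is not an amount of RNA. The sum of 6 fibroblast genes was 84.39 to 86.20 in mutants and 81.59 to 82.83 in controls. Of these, Lum (0.99) and Col1a1 (0.61) were called higher and the brightest, Dcn (0.14), was not called. The sum of 5 mast cell genes was 48.35 to 50.40 in mutants and 45.66 to 46.19 in controls, with Cpa3, Cma1, Mcpt4 and Tpsb2 called higher. The sum of 7 fat markers, of which 4 were tested, was 62.28 to 63.59 in mutants and 64.31 to 65.89 in controls. Among the tested ones Ucp1 was called lower (-1.04) and the brightest, Adipoq (-0.50), was not called. The sum of 5 skeletal muscle markers was 49.07 to 60.07 in mutants, the lowest on replicate 3, and 60.09 to 67.28 in controls, the highest on replicate 2. No muscle marker was called by limma, 1 had an unadjusted p under 0.05, and their differences ran from -1.78 to -1.08, the last that of Acta1, the brightest. With the replicate block, Mylpf (-1.78, limma adjusted p = 0.0137), Ckm (-1.32, 0.0473) and the fat markers Adipoq (0.0356) and Cidec (-0.31, 0.0289) were called lower, and the endothelial Pecam1 (0.25, 0.0313) and the macrophage marker Adgre1 (0.23, 0.0359) higher. The 9 macrophage markers summed to 91.13 to 93.68 in mutants and 92.44 to 93.48 in controls, with Cd163 called lower (-0.76) and the brightest, Lyz2 (0.08), not called. The 5 erythroid markers summed to 58.20 to 60.74 in mutants and 59.50 to 61.03 in controls, with the brightest, Hbb-bs, at -0.29. Of 6 tested endothelial markers, 3 had differences below 0, with Cldn5 called lower (-0.88), and the highest difference was 0.25. The sum of the 7 on the array overlapped, at 67.24 to 68.14 in mutants and 67.86 to 69.14 in controls. Of 5 markers of pericytes and smooth muscle, Pdgfrb was called higher (0.36), and 2 had differences below 0, the lowest -0.37. The brightest, Acta2, differed by 0.01. Their sum overlapped, at 51.93 to 52.35 in mutants and 50.42 to 53.38 in controls. The 5 Schwann cell markers summed to 62.49 to 63.44 in mutants and 69.56 to 70.07 in controls.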

How the data were processed

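Total RNA of sciatic nerve was hybridised to Illumina Mouse WG-6 version 2 arrays, 3 mutant and 3 control. The deposited values are log2-like signals that the authors normalized by RMA, per the labels' design text, and the submitters' processing notes name lumi 1.8.3. For background correction no source used here gives a method. The design text speaks of tissue culture, while every sample label names nerve, which is followed here. That text also states a present call filter keeping 18420 of 45281 probes. Lacking those calls, the brightest 18420 probes by mean over all arrays were tested, whose lowest mean was 8.34.

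Probes were named from the platform annotation (34885 with 1 symbol, 18 with several, 10378 with none). Mutant minus control was tested 2-sided by limma 3.58.1 under R 4.3.3 (lmFit, eBayes; 4 residual and 2.63 prior degrees of freedom), Benjamini-Hochberg adjusted over all kept probes, called at an adjusted p under 0.05. The brightest kept probe stood for a gene. 19 member genes had several kept probes, of which 4 had called and uncalled ones and none had opposite calls. The steps were tested on simulated data. Precision is limited by the number of arrays.

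Alternatives were the replicate number as a block, no filter, a filter of 12000 probes, cyclic loess, eBayes with trend and robust, leaving out each array, and the mean of a gene's probes. The numbers come from the sample titles. Deviations of same-numbered arrays from their group means correlated weakly (r = 0.165, 0.155 and 0.224). Whether the numbers pair the samples is not settled. The main fit did not use them, and they entered only as the block.

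The members and gene lists were chosen with earlier results of these data known. Every member may be named. Of each related list, up to 3 called genes in each direction are named, and of each marker list up to 3 called genes and the brightest. Sox10 and Dicer1 were named besides, as were, after their values were seen, Bach1, Selenop and the markers that the replicate block called. All 54 member genes matched the RefSeq table of GRCm38.p6, and promoters come from RefSeq windows of that build.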

Additional observations from a re-analysis of the deposited data

How the results depend on the processing

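Of the 20 called antioxidant genes, 5 had the same call under all 12 alternatives, 5 (Gss, Gstm7, Gsto2, Txnrd3 and Nqo1) had it under the 11 that tested them, as the filter of 12000 probes left them out, and 10 lost it under at least 1, while 10 uncalled genes gained one. No result changed direction with a call. With 1 array left out, the antioxidant genes called ran from 4 to 8 higher and from 6 to 16 lower, and the probes from 5 to 10 higher and from 9 to 20 lower. The share of all genes called in those fits is not given here. In the same fits, lower genes ran from 1 to 3 among the other Nrf2 targets, 0 to 1 among the Nrf2 partners, 6 to 13 among the thiol enzymes, 3 to 5 in NADPH supply and 1 to 2 among the selenoproteins. Higher genes ran from 0 to 1 in NADPH supply, 0 to 2 among the selenoproteins, 2 to 4 among the superoxide sources and 2 to 3 among the Nrf2 partners. The replicate block left 0 genes of NADPH supply and 0 selenoproteins higher and 2 selenoproteins lower, and took the calls of Gsta2, Gstp2 and Gstt1 and gave one to Gpx4, and it changed no other call of an antioxidant gene. Without the filter, 11 probes and 8 genes of the antioxidant set were lower and 1 selenoprotein was higher. The filter of 12000 probes tested fewer dim genes and left 5 antioxidant probes higher, 9 probes and 7 genes lower, 1 superoxide source higher, 1 selenoprotein higher and 2 lower, and 1 Nrf2 partner lower. With cyclic loess 1 selenoprotein was higher. With trend and robust, 0 selenoproteins were higher, 2 were lower, and 1 Nrf2 partner was lower. Apart from the filters, whose construction changes which genes are tested, the cause of these shifts was not tested. The mean of a gene's probes gave 6 antioxidant genes higher and 16 lower, and cyclic loess 6 and 15. For every alternative but the fit without the filter, the share of all genes called is not given here. The shifts in these counts therefore do not set the antioxidant genes apart. Whether differences of dim probes are compressed on this scale was not tested.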
